A study of Mus musculus with 36 samples.

Results

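The comparison described here is between the neocortex of severe Chd8 hypomorph mouse embryos (Chd8 neo/-) and that of heterozygous embryos (Chd8 +/-, HET) at embryonic day 12.5 (E12.5). Each group held 3 libraries, so that 6 of the 18 libraries of the series were compared, which are 12 of its 36 sequencing samples because each library was run 2 times and the runs were summed. The genes described are all those that passed a filter on low counts, 18810 of the 46603 genes in the count table. Every embryo in both groups carried 1 null allele of Chd8, and the second allele was the neo allele in Chd8 neo/- and the wildtype allele in HET.

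CHD8 is an ATP-dependent chromatin remodeller that binds the promoters of many active genes, and heterozygous loss-of-function mutations of the human gene are a strong risk factor for autism. The neo allele holds a neomycin resistance cassette in an intron downstream of the exon that the null allele lacks, and transcripts can splice into the cassette and end there, which lowers but does not abolish normal Chd8 mRNA. The null allele had been made from a conditional allele with a β-actin-driven Cre. At E12.5 the mouse neocortex is mainly a sheet of dividing radial glia, with the first intermediate progenitors and the first layer of post-mitotic neurons forming above it.

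Each library was made from 1 embryo without pooling, and replicates came from different litters. The Chd8 neo/- embryos came from crosses of Chd8 neo/+ with Chd8 +/- mice and the HET embryos from crosses of Chd8 +/- with C57BL/6J mice, so that the type of cross and its genetic background cannot be told apart from the neo allele in this comparison. The neo allele had been targeted in C57BL/6J embryonic stem cells and both lines were kept on C57BL/6J. Wildtype (CTRL) and mild hypomorph (Chd8 neo/neo) embryos of the same age, 3 libraries each, shared the estimate of the spread and give a second comparison of neo with wildtype alleles that has no library in common with the first.

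Total counts of the 6 libraries lay between 38774591 and 55686466. All levels below are counts per 1000000 (CPM) scaled by library with TMM factors, and they compare libraries, not genes. HET replicate 1 differed from the other 5 libraries in sex-linked expression, with Xist at 1458 CPM and Y-linked genes at a summed 2.22 CPM against 1.46 to 2.40 and 263 to 285. The cortical markers were present in every library, with the 8 neocortical progenitor markers summing to between 2068 and 2299 CPM and the 6 neocortical neuron markers to between 2037 and 2726. HET replicate 2 stood apart in markers of the midbrain, isthmus and diencephalon, 17 tested genes that summed to 404 CPM there and to between 125 and 172 in the other 5 libraries.

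Chd8 itself was measured first. Its counts cover the whole gene (ENSMUSG00000053754, chr14:52198151-52257723 in GRCm38) and do not separate full-length transcripts from those that end in the cassette or lack the deleted exon. The levels were 165, 170.2 and 165 CPM in HET and 158, 147 and 142 CPM in Chd8 neo/-. All 3 Chd8 neo/- libraries lay below all 3 HET libraries. The difference on the log2 scale was -0.16 (SE 0.0427), with an adjusted p of 0.042 by edgeR's quasi-likelihood test with Benjamini-Hochberg adjustment over all genes. Of the 24 alternative settings, 7 kept this call, and once length and GC trends had been taken out of each library (the length correction) the difference was -0.04 with an adjusted p of 0.638. Mean levels were 237 ± 2.41 CPM (SD, n = 3) in CTRL and 209 ± 5.64 in Chd8 neo/neo, so that whole-gene counts were lower in HET than in Chd8 neo/neo. None of the 14 tested genes within 250 kb of Chd8 passed edgeR's test or DESeq2's, 1 had an unadjusted p under 0.05, and the largest difference among them was 0.55 for the small nucleolar RNA gene Snord8 (adjusted p 0.304).

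Beyond Chd8 the comparison was broad and mostly shallow. With an adjusted p under 0.05, 1021 genes (5.43% of those tested) were differentially expressed genes (DEGs), of which 410 (2.18%) were higher and 611 (3.25%) lower in Chd8 neo/-. The median size of a called change was 0.30 among rises and -0.24 among falls on the log2 scale, 105 DEGs changed by at least 1.5-fold (62 higher, 43 lower) and 36 by at least 2-fold (24 higher, 12 lower). The 3 and 3 libraries did not overlap for 1020 of the 1021 DEGs, where 16% of all tested genes had every Chd8 neo/- library above every HET library and 14.9% the reverse. Protein coding genes made up 90.2% of the rises and 98.5% of the falls.

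The number of calls depended on single libraries. Without HET replicates 1, 2 and 3 it was 290, 694 and 509, and without Chd8 neo/- replicates 1, 2 and 3 it was 244, 255 and 470, while without replicate 3 of Chd8 neo/neo, a library outside the comparison, it was 1439. Leaving out all libraries with Xist above the Y-linked genes, HET replicate 1 among the 6 compared, gave 212 calls, of which 185 were among the 1021. All 1021 DEGs kept their direction in 21 of the 24 settings, and in each of the other 3, which used 1 sequencing run or removed length and GC trends, 1014 did. With 1 run alone, the genes not counted as kept include those that no longer passed the filter on low counts, such as Cfi, Cntnap5c, Terc and Tspan8.

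**Figure D1:**
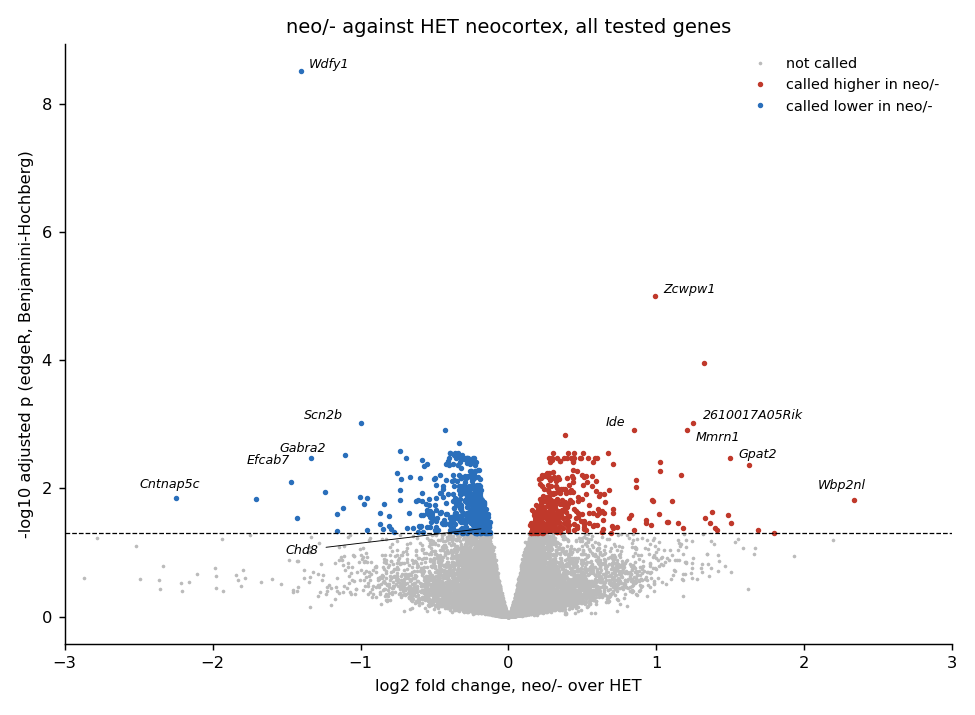
Log2 fold change of Chd8 neo/- over HET (x axis) against -log10 of the adjusted p from edgeR (y axis) for the 18810 tested genes, with the dashed line at an adjusted p of 0.05. Red points are the 410 genes called higher and blue points the 611 called lower, 2 genes with uncalled differences beyond 3 lie outside the axis, and Wdfy1 and Zcwpw1 stand far above the threshold.

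The direction of change followed gene length. Genes called lower had a median exon length of 7206 bp and a median GC content of 45.5%, those called higher 2866.5 bp and 53%, and all tested genes 3398 bp and 49.3%. When tested genes were split into 10 equal bins by exon length, the median log2 difference ran from 0.092 in the shortest bin to -0.098 in the longest, and the share called lower from 0.106% to 12.6%. The same slope was seen between Chd8 neo/neo and CTRL, from 0.047 to -0.068. It was also present library by library, since on the log2 scale, relative to the mean of the 12 libraries, the median of the longest bin minus that of the shortest was 0.063, 0.108 and 0.035 in the HET libraries and -0.108, -0.103 and -0.122 in the Chd8 neo/- libraries, which did not overlap. After length and GC trends were removed from each library 547 genes were called, 271 of them lower, and 425 of the 547 were among the 1021. The share of calls that were lower was thus 49.5% in place of 59.8%. Whether the trend with length came from the libraries or from the embryos was not tested. Of the 101 named genes that were called, 56 kept the call after this correction.

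**Figure D2:**
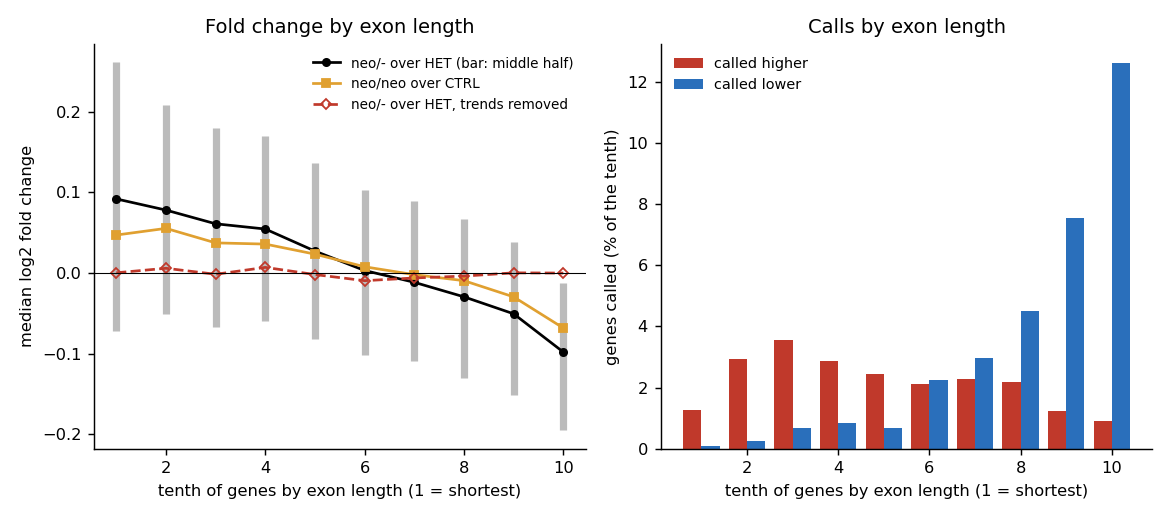
Left, median log2 fold change in each of 10 equal bins of the tested genes by exon length, for Chd8 neo/- over HET (black, grey bars from the lower to the upper quartile), Chd8 neo/neo over CTRL (orange) and Chd8 neo/- over HET with length and GC trends removed (red, dashed). Right, percent of genes called higher (red) and lower (blue) in each bin, where calls of lower genes climb from 0.106% in the shortest bin to 12.6% in the longest.

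The gene with the smallest adjusted p was Wdfy1, which encodes an endosomal phosphoinositide-binding protein (chr1:79702262-79776143). Wdfy1 stood at 39.1, 39.1 and 37.5 CPM in HET and at 14.5, 13.9 and 15.5 CPM in Chd8 neo/-. The groups were far apart and tight, with a log2 difference of -1.40 (SE 0.0541, adjusted p 3.07e-09 by edgeR). Its level split the 4 genotypes by whether any neo allele was present, since CTRL had 37.7 ± 1.30 CPM and Chd8 neo/neo 14.3 ± 0.376 (SD, n = 3), and a single neo allele in Chd8 neo/- went with as low a level as 2.

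Mmrn1 (chr6:60924976-60989378), which encodes a multimerin of platelets and endothelium, was among the clear rises. Mmrn1 had 7.74, 7.78 and 8.28 CPM in HET and 14.5, 21.5 and 18.9 CPM in Chd8 neo/-. The groups lay wide apart, with a log2 difference of 1.2 (SE 0.133, adjusted p 0.00122 by edgeR). In CTRL the mean was 8.18 ± 0.531 CPM, close to that of HET, and in Chd8 neo/neo it was 15.8 ± 2.21 CPM (SD, n = 3).

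Gabra2, the α2 subunit of the GABA-A receptor (chr5:70957597-71095849), was the called synaptic gene with the smallest adjusted p. Its levels were 27.2, 18.9 and 23.3 CPM in HET and 10.6, 9.46 and 12.2 CPM in Chd8 neo/-. The HET libraries were the more scattered, yet the lowest of them stayed well above every Chd8 neo/- library, and the log2 difference was -1.11 (SE 0.138, adjusted p 0.00306 by edgeR). CTRL with 21.9 ± 1.14 CPM was near HET, and Chd8 neo/neo with 11.7 ± 1.69 (SD, n = 3) near Chd8 neo/-. As background, Gabra2 and Wdfy1 levels are known to differ among substrains of C57BL/6, and the descent of the animals was not tested here.

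Further genes among the 10 smallest adjusted p showed the same arrangement by neo allele. Aaas, which encodes the nuclear pore protein aladin, rose from 63.5, 61.5 and 65.3 CPM to 85.9, 82.2 and 80.3 CPM, a tight difference of 0.38 (SE 0.0462, adjusted p 0.00147 by edgeR), and stood at 62.1 ± 1.05 in CTRL and 79.8 ± 3.91 in Chd8 neo/neo. The zinc finger gene Zfp799 fell from 51.5, 54.5 and 53.9 CPM to 39.3, 38.9 and 40.9 CPM (-0.43, adjusted p 0.00122 by edgeR). The transcript 2610017A05Rik, which lies opposite Ipo8 on chromosome 6, rose from 1.62, 1.62 and 1.80 CPM to 4.50, 4.16 and 3.34 CPM, by 1.25 (adjusted p 0.000942 by edgeR). None of these groups overlapped. The methods do not say whether strand was used in counting. If it was not, reads of 2610017A05Rik and of Ipo8 cannot be told apart where the genes overlap.

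Efcab7, whose product takes part in hedgehog signalling at the base of the primary cilium, fell strongly and evenly. The libraries gave 16.8, 15.3 and 16 CPM in HET and 6.47, 6.09 and 6.54 CPM in Chd8 neo/-, a log2 difference of -1.33 (SE 0.179, adjusted p 0.00341 by edgeR). Here the arrangement differed, since CTRL (12 ± 1.31) lay below HET and Chd8 neo/neo (9.23 ± 2.78, SD, n = 3) between CTRL and Chd8 neo/-. Efcab7 overlaps Itgb3bp on the opposite strand.

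Ide, the gene of insulin-degrading enzyme (chr19:37268743-37337852), was high in Chd8 neo/- alone. Its levels were 133, 130.3 and 138 CPM in HET and 262, 202 and 260.3 CPM in Chd8 neo/-. Every Chd8 neo/- library was far above the HET range, with replicate 2 the lowest of the 3, and the log2 difference was 0.85 (SE 0.0869, adjusted p 0.00122 by edgeR). CTRL (134 ± 4.38) and Chd8 neo/neo (139 ± 9.84) were at the HET level, and the difference between the 2 contrasts was 0.81, with an adjusted p of 0.171 when tested over all genes. As background, the region of Ide varies in copy number among C57BL/6J mice, and copy number was not tested here.

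**Figure D3:**
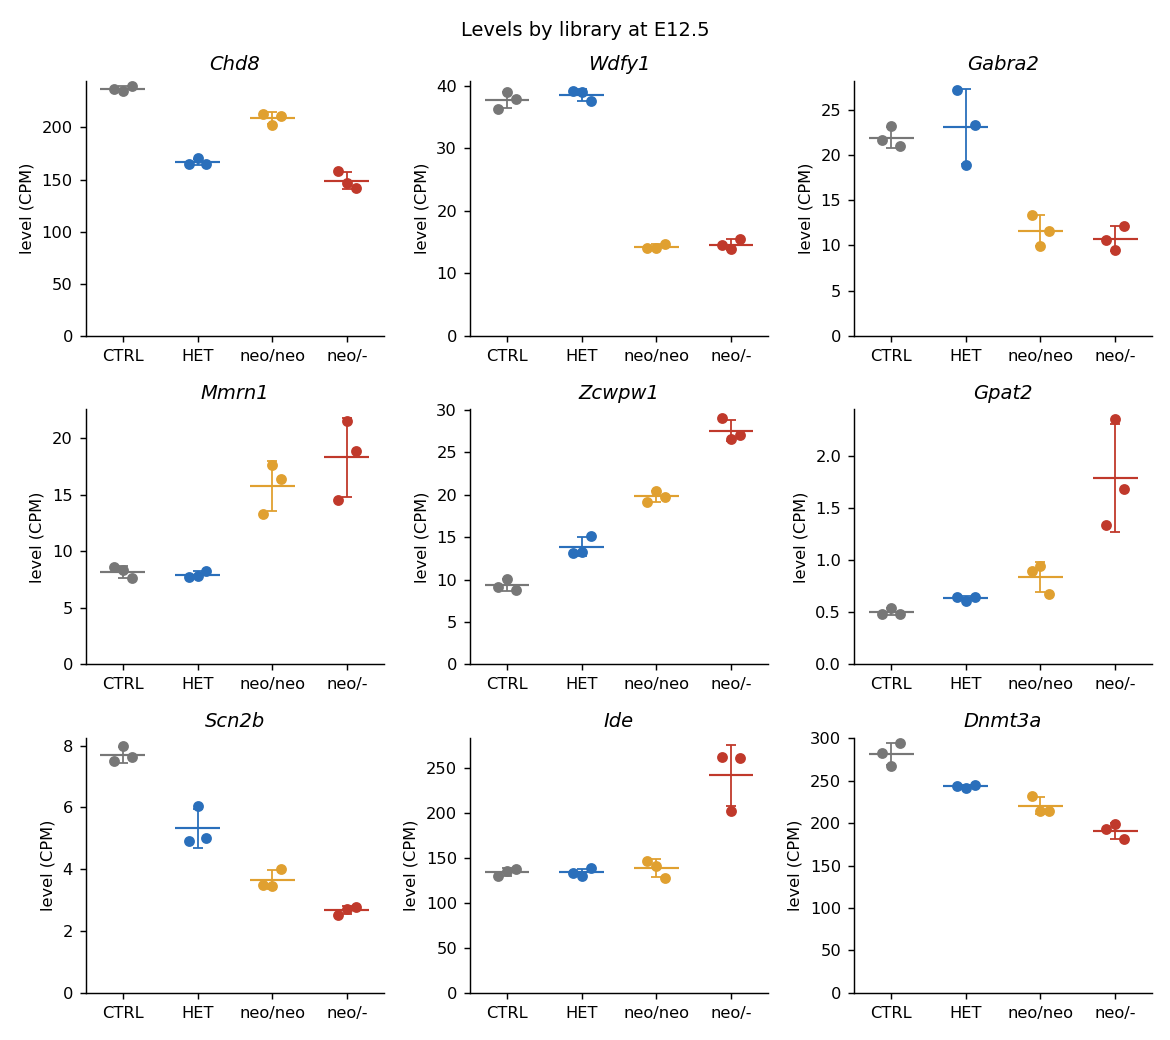
Levels in CPM (y axes, from 0) of 9 genes in each of the 12 libraries at E12.5, grouped by genotype, with the mean as a horizontal line and the SD as an error bar (n = 3). Wdfy1, Gabra2 and Mmrn1 divide by presence of the neo allele, Zcwpw1 and Scn2b step through the 4 genotypes, and Ide is high only in the Chd8 neo/- libraries, at 202 to 262 CPM.

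Germline genes, which are normally silenced outside the germ cells by DNA methylation and an E2F6-containing Polycomb complex, leaned higher. Of 38 tested members of the list, 4 rose and 1 fell (13.2% called), and 30 of the 38 had a difference above 0. The median log2 difference was 0.19 against 0.0070 over all tested genes. Over all tested genes 2.18% were called higher and 3.25% lower, and the list counts here and below stand against these shares. The germline list was written with earlier results of these data known, and the study itself names Zcwpw1 and Gpat2. Its counts and median are therefore a description and not independent support. Counts of 4 and 1 were also found after length and GC trends were removed. Without HET replicates 1, 2 and 3 the number of rises was 2, 5 and 3, and without Chd8 neo/- replicates 1, 2 and 3 it was 3, 2 and 4. The 1 fall was lost without HET replicate 1 and without Chd8 neo/- replicate 1 or 2.

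Zcwpw1, a reader of histone methylation at meiotic recombination sites (chr5:137787798-137822621), had the smallest adjusted p of these. It stood at 13.2, 13.3 and 15.2 CPM in HET and at 29, 26.6 and 27.1 CPM in Chd8 neo/-. Every Chd8 neo/- library was far above every HET library, with a log2 difference of 0.99 (SE 0.0718, adjusted p 1e-05 by edgeR). Zcwpw1 stepped through the genotypes, from 9.33 ± 0.697 CPM in CTRL through 13.9 ± 1.13 in HET and 19.8 ± 0.659 in Chd8 neo/neo to 27.6 ± 1.28 in Chd8 neo/- (SD, n = 3). Zcwpw1 overlaps Pilra on the opposite strand.

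Gpat2, a mitochondrial acyltransferase gene of spermatogenic cells needed for piRNA production, was low in all libraries. It had 0.652, 0.614 and 0.650 CPM in HET, at most 31 counts, and 1.34, 2.36 and 1.68 CPM in Chd8 neo/-, up to 132 counts. The Chd8 neo/- libraries were spread but all well above HET, with a log2 difference of 1.49 (SE 0.22, adjusted p 0.00338 by edgeR). Wbp2nl, which encodes a sperm head protein, had the largest rise of all named genes, but on few reads. It had 0.0261, 0.0683 and 0.147 CPM in HET, at most 7 counts, and 0.368, 0.411 and 0.526 CPM in Chd8 neo/-, up to 25 counts, and differed by 2.33 (SE 0.484, adjusted p 0.0153 by edgeR).

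The meiotic cohesin gene Rec8 went the other way. It fell from 7.97, 7.49 and 7.30 CPM to 4.83, 4.79 and 5.59 CPM without overlap, a difference of -0.58 (SE 0.122, adjusted p 0.0159 by edgeR). Msh5, a meiotic mismatch repair homologue, is the remaining called member and is outside the rule by which genes were chosen. It rose from 5.79, 6.30 and 6.06 CPM to 10.3, 9.46 and 8.83 CPM, by 0.65 (adjusted p 0.0161 by edgeR).

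The promoters of the called germline genes are shown because such promoters are where E2F6 and MGA are known to bind. Of the 5 called genes, 4 had an entry in the RefSeq promoter table of GRCm38.p6, and Wbp2nl is named only. Each line gives the 250 bases before the RefSeq start, 5′ to 3′ on the gene's strand, which lies 0 to 129 bases from the gene start in the count annotation. Capitals mark CACGTG (the E-box of MGA and MAX), GCGGGAA or its reverse complement TTCCCGC (an E2F site), and CGCGCA or TGCGCG (a GC-rich string), searched on both strands.
Zcwpw1, chr5:137787552-137787801, plus strand: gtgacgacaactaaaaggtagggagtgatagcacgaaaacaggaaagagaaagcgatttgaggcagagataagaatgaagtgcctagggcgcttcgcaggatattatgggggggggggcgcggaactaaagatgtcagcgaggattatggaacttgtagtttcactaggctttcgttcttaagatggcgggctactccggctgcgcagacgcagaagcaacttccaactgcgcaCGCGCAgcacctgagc
Gpat2, chr2:127424949-127425198, plus strand: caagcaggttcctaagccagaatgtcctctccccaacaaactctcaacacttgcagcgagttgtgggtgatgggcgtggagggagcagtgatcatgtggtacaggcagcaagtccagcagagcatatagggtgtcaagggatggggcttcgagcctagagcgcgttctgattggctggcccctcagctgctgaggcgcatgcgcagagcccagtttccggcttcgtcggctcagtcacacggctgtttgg
Rec8, chr14:55617916-55618165, plus strand: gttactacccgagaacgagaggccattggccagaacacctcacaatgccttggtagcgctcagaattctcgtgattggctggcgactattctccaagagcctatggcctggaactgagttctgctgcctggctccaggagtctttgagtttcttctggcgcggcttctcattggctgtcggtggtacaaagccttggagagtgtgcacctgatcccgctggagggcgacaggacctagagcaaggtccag
Msh5, chr17:35046623-35046872, minus strand: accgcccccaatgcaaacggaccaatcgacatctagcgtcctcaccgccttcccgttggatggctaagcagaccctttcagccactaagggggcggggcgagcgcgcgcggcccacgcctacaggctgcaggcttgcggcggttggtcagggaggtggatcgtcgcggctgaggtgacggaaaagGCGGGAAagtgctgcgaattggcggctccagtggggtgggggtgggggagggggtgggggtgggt
The window of Zcwpw1 held CGCGCA once and that of Msh5 held GCGGGAA once, while those of Gpat2 and Rec8 held none of the strings and no window held CACGTG. Over 32851 promoter windows of the same length from 27025 genes, 6.02% held CACGTG, 3.82% held GCGGGAA or TTCCCGC and 10.1% held CGCGCA or TGCGCG. A match describes these letters only.

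Outside the germline list, Scn2b and Sfxn1 had lower means from CTRL through HET and Chd8 neo/neo to Chd8 neo/-. Scn2b encodes a β subunit of voltage-gated sodium channels and had 4.93, 6.05 and 5.01 CPM in HET against 2.53, 2.71 and 2.78 CPM in Chd8 neo/-. The groups were well separated, with a log2 difference of -0.99 (SE 0.11, adjusted p 0.000942 by edgeR), and the means of CTRL and Chd8 neo/neo were 7.70 ± 0.247 and 3.66 ± 0.306 CPM (SD, n = 3). Sfxn1, the mitochondrial serine carrier, had 90.9, 89.9 and 91.8 CPM in HET and 71.1, 73.2 and 71.4 CPM in Chd8 neo/-. Both groups were tight, with a difference of -0.34 (SE 0.0419, adjusted p 0.00192 by edgeR) and means of 108 ± 2.65 in CTRL and 84.4 ± 4.30 in Chd8 neo/neo.

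The largest rises were otherwise, Gm26917 apart, of genes with few reads. Muc6, a gel-forming mucin gene, rose from 0.599, 0.546 and 0.440 CPM to 1.99, 1.21 and 1.70 CPM, by 1.63 (adjusted p 0.0043 by edgeR). Gm26917, annotated as a long non-coding RNA, rose from 7.77, 12.3 and 7.88 CPM to 25.1, 29.3 and 36.0 CPM, by 1.69 (adjusted p 0.044 by edgeR). Its mean was as high in Chd8 neo/neo but spread, at 34.2 ± 15.4 CPM (SD, n = 3), and the source of its reads was not tested. The others were the complement factor gene Cfi (1.48), the antisense gene Gm14455 (1.41), the tetraspanin gene Tspan8 (1.40), the scaffold gene Cass4 (1.38), the telomerase RNA Terc (1.36) and the antisense gene Gm15169 (1.33), each below 2 CPM in every library. Gm14455 and Cass4 overlap on opposite strands, so that their reads cannot be told apart there if strand was not used in counting. Tspan8 kept its call in 7 of the 24 settings, Gm26917 in 9, Gm14455 in 10 and Terc in 12, and none of these 4 was called after the length correction.

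The largest fall was that of Cntnap5c, a contactin-associated adhesion gene, from 0.469, 0.410 and 0.398 CPM to 0.108, 0.0536 and 0.105 CPM. No HET library had more than 19 counts and no Chd8 neo/- library more than 5, and the log2 difference was -2.25 (SE 0.458, adjusted p 0.0144 by edgeR). Other large falls were those of the epithelial trafficking gene Rab25 (-1.70), the folate enzyme and astroglial gene Aldh1l1 (-1.47), the growth factor gene Hgf (-1.43), the kinase gene Ripk4 (-1.24), the adenylyl cyclase gene Adcy8 (-1.16), the neuronal nitric oxide synthase gene Nos1 (-1.16), the serine protease gene Htra1 (-1.12) and the ephrin receptor gene Epha8 (-1.0). All were below 4 CPM in every library. Adcy8 kept its call in 10 of the 24 settings and Aldh1l1 in 23, and after the length correction Adcy8 (adjusted p 0.0617 by edgeR) and Nos1 (adjusted p 0.0531 by edgeR) were not called. Rab25 was at 0.287, 0.432 and 0.524 CPM in HET and 0.173, 0.125 and 0.0841 CPM in Chd8 neo/-. Summed surface ectoderm markers, which are epithelial genes, were at 22.8 and 22.6 CPM in HET replicates 2 and 3 and at 11.8 to 13.7 in the other 4 libraries, and their part in the falls of such genes was not tested.

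Among 101 named genes that were called, 20 kept the call in all 24 settings. Among them were the rises of 2610017A05Rik, Aaas, Ide, Mmrn1, Psrc1, Xrcc4 and Zcwpw1 and the falls of Asxl3, Chd3, Dnmt3a, Efcab7, Gabra2, Kmt2e, Lrrtm2, Scn2b, Sema3c, Sfxn1, Wdfy1 and Zfp799.

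Among the genes of DNA methylation, 4 of 17 tested fell and none rose, with a median of 0.03. Dnmt3a, the de novo methyltransferase gene, was at 243, 241 and 245 CPM in HET and at 193, 198 and 181 CPM in Chd8 neo/-. The HET libraries were nearly equal and all above the Chd8 neo/- libraries, with a log2 difference of -0.35 (SE 0.0485, adjusted p 0.00306 by edgeR) that was still called after the length correction at -0.24. Tet1, a 5-methylcytosine oxidase gene, fell by 0.23, from 67.9, 62.7 and 63.0 CPM to 54.0, 54.5 and 56.6 CPM. Zbtb33, which encodes a reader of methylated DNA, fell by 0.19. The corrected fit called Dnmt3a alone of the 4, as did the fits without HET replicate 1 and without Chd8 neo/- replicates 1 and 2, each with 1 call.

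Of the 9 CHD remodeller genes, 3 fell and 1 rose, with a median of -0.15. Chd3, a subunit of NuRD complexes, had 517, 483 and 493 CPM in HET and 382, 400.0 and 398 CPM in Chd8 neo/-. The groups did not overlap, and the difference was -0.34 (SE 0.0541, adjusted p 0.00424 by edgeR). Chd9, of the same subfamily as Chd8, fell by 0.28, from 115, 108 and 109 CPM to 91.8, 92.0 and 88.8 CPM. Chd6 fell by 0.16 and Chd1l rose by 0.27, calls that were kept in 5 and 10 of the 24 settings, and Chd1l was not called without any 1 of the 6 libraries. With the length correction the list had a median of -0.04 and the 1 call of Chd3.

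Nuclear regulators associated with autism, most of them chromatin proteins and transcription factors encoded by long genes, gave the highest count of falls of any list. Of 82 tested, 21 fell (25.6%, against 3.25% of all tested genes) and none rose, with a median of -0.13 and 73 of 82 differences below 0. The count depends on list size, and a larger share of the CHD remodeller genes fell, 3 of 9. Kmt2e, of the MLL family, went from 224, 226 and 215 CPM to 173, 186 and 171 CPM, a difference of -0.33 (SE 0.046, adjusted p 0.00332 by edgeR). Asxl3, a Polycomb deubiquitinase cofactor gene, went from 53.8, 58.2 and 51.8 CPM to 42.9, 40.3 and 45.0 CPM, and differed by -0.35 (adjusted p 0.00341 by edgeR). Neither gene's groups overlapped. Kdm5b, a histone H3 demethylase gene, fell by 0.28, from 226, 223 and 219.8 CPM to 175, 187 and 189 CPM. The median exon length of the list was 10797 bp, and after the length correction its median was -0.03 and 5 members were called, Dnmt3a, Kmt2e, Asxl3, Chd3 and Ncoa1. Without HET replicates 1, 2 and 3 the count of falls was 9, 15 and 14, and without Chd8 neo/- replicates 1, 2 and 3 it was 10, 9 and 11.

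Polycomb genes showed 5 falls among 38 (13.2%, against 3.25% of all tested genes) and no rise, with a median of -0.02. Phf19, a Polycomb-like protein that guides PRC2 to CpG islands, fell by 0.62, from 7.74, 6.60 and 7.42 CPM to 5.26, 5.21 and 3.64 CPM. Mga (-0.19), a subunit of the complex that silences germline genes, Auts2 (-0.24), Bcorl1 (-0.30) and Rybp, which was not chosen by the rule and whose difference was -0.16, fell as well. Phf19 and Bcorl1 were called after the length correction, and the count was 1 without HET replicate 1, 2 without Chd8 neo/- replicate 1, 3 without replicate 2 and 2 without replicate 3.

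Genes of the cell cycle leaned the other way. Of 82 tested E2F target and G1/S genes, 5 rose (6.10%, against 2.18% of all tested genes) and none fell. Of the 82 differences 74 were above 0, with a median of 0.10 that was 0.11 after the length correction, when 8 rose. Pold1, the catalytic subunit of DNA polymerase δ, had 97.8, 103 and 106 CPM in HET and 126, 127 and 116 CPM in Chd8 neo/-. It differed by 0.27 (SE 0.0557, adjusted p 0.0157 by edgeR) without overlap. The clamp loader gene Rfc5 (0.27), the chromatin assembly gene Chaf1b (0.23), the primase-associated gene Pola2 (0.19) and Fanci (0.19), the last outside the rule, rose too. These rises were small and rested on every library, since none was called without HET replicate 1 or without Chd8 neo/- replicate 1 or 2, while 2, 3 and 2 were called without HET replicates 2 and 3 and Chd8 neo/- replicate 3.

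Among 60 mitosis and spindle genes 4 rose (6.67%, against 2.18% of all tested genes) and none fell, with a median of 0.04. Cdca8, the borealin subunit of the chromosomal passenger complex, was at 129, 124 and 127 CPM in HET and 155, 150.1 and 152 CPM in Chd8 neo/-. Both groups were tight and apart, by 0.27 (SE 0.049, adjusted p 0.00879 by edgeR). Birc5, the survivin subunit of the same complex (0.18), the centromeric histone gene Cenpa (0.27) and Cdc20, an activator of the anaphase-promoting complex (0.20), also rose. The count was 1, 3 and 1 without HET replicates 1, 2 and 3, 0, 1 and 3 without Chd8 neo/- replicates 1, 2 and 3, and 2 after the length correction.

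DNA repair genes gave 6 rises and 2 falls among 60, with a median of 0.03. Over all tested genes 2.18% were called higher and 3.25% lower, and the falls of this list were near that share. Xrcc4, the partner of DNA ligase IV in end joining, was the largest, from 10.1, 9.21 and 10.7 CPM to 15.6, 15.2 and 14.7 CPM. No library came near the other group, and the difference was 0.60 (SE 0.0883, adjusted p 0.00338 by edgeR). The glycosylase gene Nthl1 (0.47) and the nucleotide excision repair gene Ercc1 (0.23) rose, and Rev3l, the catalytic subunit of DNA polymerase ζ, fell by 0.31 from 147, 143 and 145 CPM to 116, 115 and 120.5 CPM. After the length correction 3 rises and no fall were called. The rises numbered 3, 4 and 2 without HET replicates 1, 2 and 3, and 1, 1 and 3 without Chd8 neo/- replicates 1, 2 and 3.

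Among 40 tested p53 targets 4 rose and 1 fell (12.5% called, against 5.43% of all tested genes), with a median of 0.02. Psrc1, a spindle-associated gene, rose from 74.6, 74.0 and 73.0 CPM to 89.9, 88.3 and 84.1 CPM, by 0.24 (SE 0.0413, adjusted p 0.00613 by edgeR). The mitotic gene Gtse1 (0.25), the death domain gene Pidd1 (0.40) and the AKT repressor gene Phlda3 (0.46) rose, and Trp53inp1, outside the rule, fell by 0.21. The best known targets did not pass the test, as Cdkn1a stood at 22.4, 19.9 and 21 CPM in HET and 20.2, 21.6 and 22.5 CPM in Chd8 neo/-, a difference of 0.02 (SE 0.0695, adjusted p 0.881 by edgeR). Mdm2 (0.11, adjusted p 0.152), Ccng1 (0.15, adjusted p 0.249) and Pmaip1 (-0.17, adjusted p 0.682) were likewise not called, nor were Trp53 itself (0.07, adjusted p 0.45) and the damage kinase genes Atm (-0.14, adjusted p 0.104) and Atr (adjusted p 0.992). The number of rises was 1, 3 and 2 without HET replicates 1, 2 and 3, 1, 1 and 2 without Chd8 neo/- replicates 1, 2 and 3, and 2 after the length correction.

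Genes of neurons had a median below 0 in every list fixed for them. The lists are described by counts and medians, with 0.0070 as the median of all tested genes, of which 2.18% were called higher and 3.25% lower. In bulk tissue fewer neurons and less RNA of these genes per neuron cannot be told apart. The 6 neocortical neuron markers summed to 2726, 2219 and 2369 CPM in HET and 2144, 2037 and 2296 CPM in Chd8 neo/-. HET replicate 1 was the highest of the 6 and the ranges overlapped, and their median difference of -0.30 was -0.12 without HET replicate 1. Dcx, the microtubule protein doublecortin of migrating neurons, was the 1 called marker, at 968, 813 and 840.1 CPM in HET and 693, 631 and 753 CPM in Chd8 neo/-, a difference of -0.34 (SE 0.0808, adjusted p 0.03 by edgeR) that had an adjusted p of 0.211 after the length correction and was not called without HET replicate 1 or 3 or Chd8 neo/- replicate 1 or 2.

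Among 46 early neuron and cytoskeleton genes 9 fell and none rose, with a median of -0.20 and 44 of 46 differences below 0. The ankyrin gene Ank2 (-0.20), the splicing regulator gene Rbfox2 (-0.27), the kinesin gene Kif1a (-0.24) and Dcx had the smallest adjusted p. After the length correction the median was -0.17 and no gene of the list was called. The count also went to 0 without HET replicate 1 and without Chd8 neo/- replicate 2, to 1 without Chd8 neo/- replicate 1, and to 5, 7 and 4 without HET replicates 2 and 3 and Chd8 neo/- replicate 3.

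Synaptic genes gave 12 falls and no rise among 68, a median of -0.27 and 66 of 68 differences below 0. Lrrtm2, a postsynaptic adhesion gene, was at 10.7, 10.9 and 10.2 CPM in HET and 6.71, 6.14 and 7.23 CPM in Chd8 neo/-. The groups lay wide apart, with a difference of -0.66 (SE 0.115, adjusted p 0.00673 by edgeR). Bsn, which encodes the presynaptic scaffold bassoon, went from 72.8, 64.3 and 61.0 CPM to 42.0, 47.9 and 50.4 CPM and fell by 0.50 (SE 0.0844, adjusted p 0.00696 by edgeR). Pclo, the gene of the related scaffold piccolo, fell by 0.33. After the length correction 8 were called, Gabra2, Lrrtm2 and Bsn among them. The count was 4, 11 and 9 without HET replicates 1, 2 and 3 and 4, 4 and 11 without Chd8 neo/- replicates 1, 2 and 3.

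Genes of voltage-gated channels gave 9 falls and no rise among 50, with a median of -0.28. Besides Scn2b, the potassium channel gene Kcna6 and the N-type calcium channel gene Cacna1b were among them. Kcna6 went from 6.65, 10.2 and 7.11 CPM to 4.76, 4.50 and 5.15 CPM, with HET replicate 2 the highest, and fell by 0.74 (SE 0.141, adjusted p 0.0106 by edgeR). Cacna1b fell by 0.50. The corrected fit called 5. Without HET replicates 1, 2 and 3 the count was 3, 7 and 8, and without Chd8 neo/- replicates 1, 2 and 3 it was 2, 2 and 8.

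Targets of REST, the factor that represses neuronal genes outside neurons, overlapped these lists. Of 68 tested, 11 fell and none rose, with a median of -0.25. Mapk8ip2, a JNK scaffold gene, had the smallest adjusted p of them, at 116, 113 and 109.6 CPM in HET and 93.0, 94.4 and 98.0 CPM in Chd8 neo/-, a difference of -0.25 (SE 0.0376, adjusted p 0.00358 by edgeR). The planar polarity cadherin gene Celsr3 fell by 0.28. After the length correction 6 were called, and the count was 3, 9 and 8 without HET replicates 1, 2 and 3 and 2, 3 and 10 without Chd8 neo/- replicates 1, 2 and 3.

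Axon guidance genes gave 5 falls (9.26%, against 3.25% of all tested genes) and no rise among 54, with a median of -0.15. Sema3c, a secreted semaphorin gene, was at 26.8, 28.7 and 26.8 CPM in HET and 18, 17.8 and 19.6 CPM in Chd8 neo/-. It differed by -0.57 (SE 0.0914, adjusted p 0.00442 by edgeR) with no overlap. The Slit receptor gene Robo1 fell by 0.44, from 174, 203 and 164 CPM to 131, 122 and 144 CPM, and Ephb1 fell by 0.23. The count was 2 without HET replicate 1 and without Chd8 neo/- replicate 1 or 2, 3 without Chd8 neo/- replicate 3, and 3 after the length correction. Of 13 contactin genes, whose median was -0.32, the fall of Cntnap5c was the 1 call, and it was lost without HET replicate 1 and without Chd8 neo/- replicate 1 or 2.

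**Figure D4:**
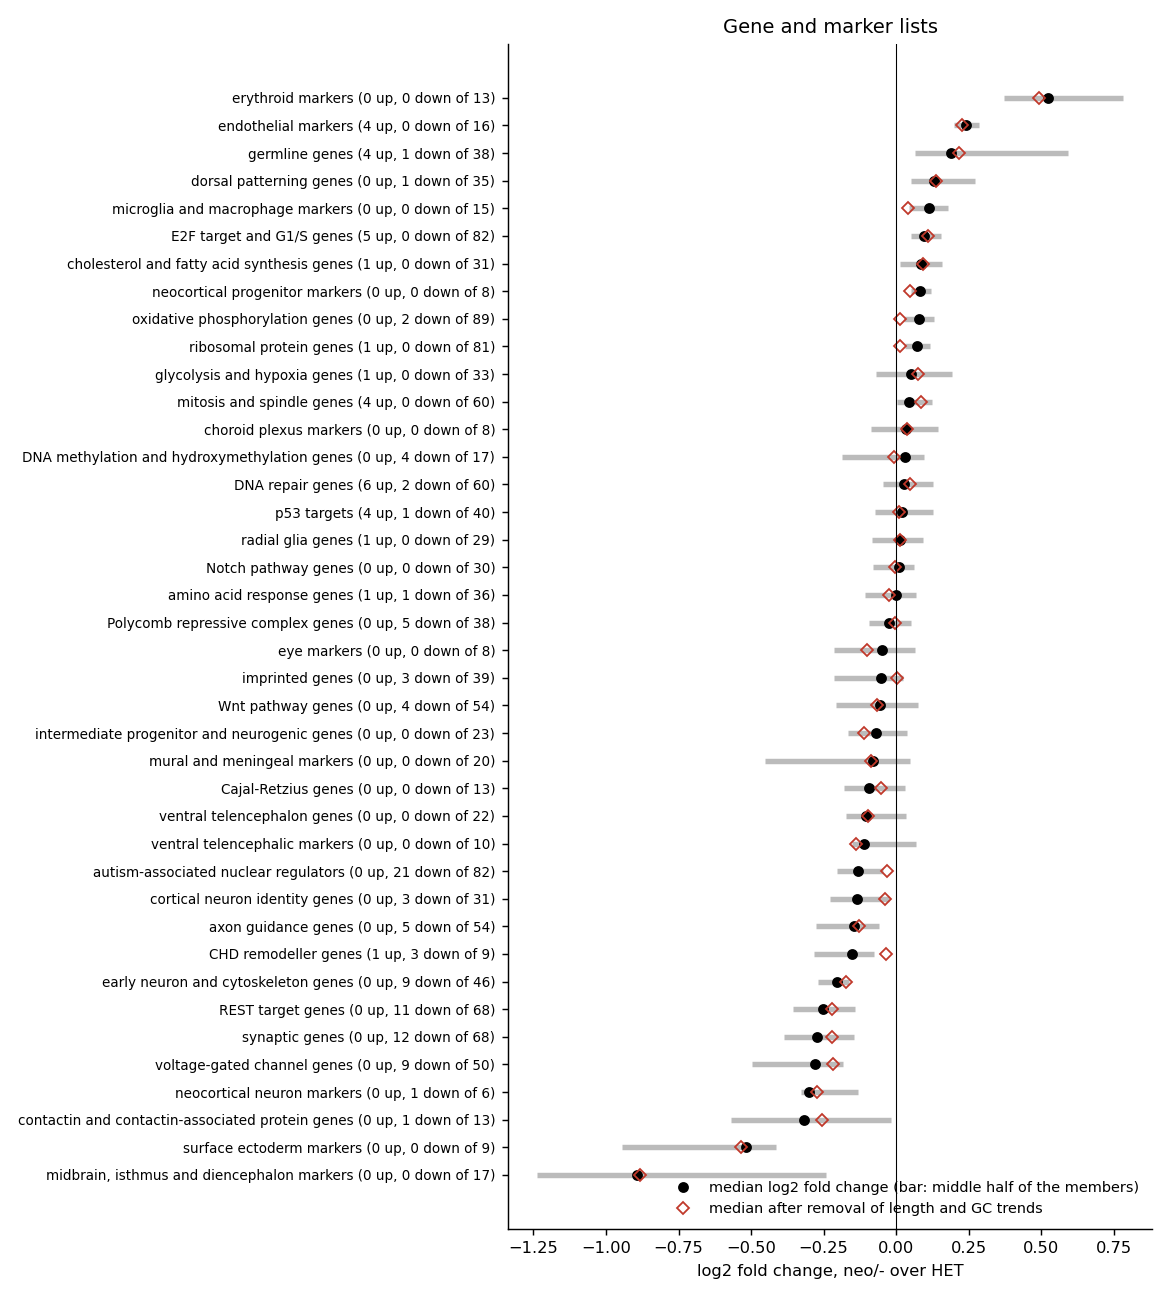
Median log2 fold change of Chd8 neo/- over HET for each gene list and marker list (black circles, grey bars from the lower to the upper quartile) and the median after length and GC trends were removed (red diamonds), with the counts called up and down and the number tested in each label. The neuronal lists sit between -0.13 and -0.32, apart from the Cajal-Retzius list at -0.09. E2F targets and germline genes sit at 0.10 and 0.19. Midbrain, isthmus and diencephalon markers sit at -0.89, a median that was 0.29 without HET replicate 2.

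Progenitor genes gave few calls. Of 29 radial glia genes 1 rose (3.45%, against 2.18% of all tested genes), Mfge8 (0.23), with a list median of 0.01. That rise was not called after the length correction (adjusted p 0.132 by edgeR). Of the fits that left out 1 of the 6 libraries, only that without HET replicate 2 called it. Sox2, not called, stood at 230.0, 218 and 232 CPM in HET and 245, 258 and 227 CPM in Chd8 neo/-. None of 23 intermediate progenitor and neurogenic genes was called by edgeR, although 5 had an unadjusted p under 0.05 and DESeq2 called 3 lower, and the median was -0.07. Elavl4, the member with the smallest adjusted p, differed by -0.23 (adjusted p 0.0557). With the length correction 2 members were called lower and the median was -0.11.

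The transcription factors of cortical neuron identity showed 3 falls among 31 (9.68%, against 3.25% of all tested genes), with a median of -0.13. Foxp2 went from 55.1, 62.5 and 54.2 CPM to 47.0, 45.2 and 47.2 CPM and fell by 0.30 (SE 0.0555, adjusted p 0.00895 by edgeR). Cux1 (-0.26) and Sox5 (-0.23) fell too. None of the 3 was called after the length correction, the count was 0 without Chd8 neo/- replicate 2 and 1 without HET replicate 1, HET replicate 3 or Chd8 neo/- replicate 3.

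In dorsal patterning genes, 28 of 35 differences were above 0 and the median was 0.13. The 1 call (2.86% of the list, against 3.25% called lower over all tested genes) was the fall of Wnt5a (-0.32). It was lost without HET replicate 1 or 2, without Chd8 neo/- replicate 1 or 2 and after the length correction. No gene of the Cajal-Retzius list (13 tested, median -0.09) or of the ventral telencephalon list (22 tested, median -0.11) was called by edgeR. An unadjusted p under 0.05 was found for 2 and 0 of them, and DESeq2 called 1 and 0. In the first the smallest adjusted p was that of Ebf1 (-0.29, adjusted p 0.053), and in the second those of Sp9 (-0.20, adjusted p 0.227) and Gad2 (-0.22, adjusted p 0.23). HET replicate 2, the library with high midbrain and diencephalon markers, weighs on these lists, since the Cajal-Retzius median was 0.15 without it and -0.24 without HET replicate 3.

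The Wnt pathway, in which CHD8 was first described as a β-catenin partner, had 4 falls among 54 (7.41%, against 3.25% of all tested genes) and no rise. Its median was -0.06, and 0.04 without HET replicate 2. The destruction complex gene Apc went from 410.3, 380.5 and 360.4 CPM to 323, 307 and 336 CPM and fell by 0.25 (SE 0.0542, adjusted p 0.0175 by edgeR). The ligand gene Wnt5a, the receptor gene Fzd3 (-0.24) and the co-receptor gene Lrp6 (-0.20) fell as well. The feedback target Axin2 was at 71.3, 87.6 and 70.6 CPM in HET and 72.3, 79.0 and 73.8 CPM in Chd8 neo/- and was not called (-0.03, adjusted p 0.902). None of the 4 falls was called after the length correction, and there were none without Chd8 neo/- replicate 1, 1 without HET replicate 1 or Chd8 neo/- replicate 2, and 2 without HET replicate 2 or Chd8 neo/- replicate 3. No Notch pathway gene of 30 was called by edgeR (median 0.0087), 5 had an unadjusted p under 0.05 and DESeq2 called 1 higher and 1 lower, where the ligand gene Dll4 (0.37, adjusted p 0.0566) and the effector gene Heyl (0.24, adjusted p 0.15) had the smallest adjusted p.

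Housekeeping lists of short genes moved with the length trend. Ribosomal protein genes had a median of 0.07 over 81 tested with 1 rise, Rpl35a (0.26), which was not called without any 1 of the 6 libraries, and a median of 0.01 after the length correction. Oxidative phosphorylation genes had a median of 0.08 over 89 and 0.01 after it. Their 2 calls were falls of mitochondrially encoded subunits of complex I, mt-Nd5 from 2674, 2996 and 2889.9 CPM to 2409, 2303 and 2405 CPM (-0.27, adjusted p 0.0235 by edgeR) and mt-Nd6 by -0.26. Both were called after the length correction and without HET replicate 1, and neither without any other of the 6 libraries.

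Metabolic lists gave isolated calls. The glutamine transporter gene Slc1a5 rose from 36.7, 40.6 and 37.8 CPM to 48.7, 51.0 and 44.9 CPM, by 0.33 (SE 0.0778, adjusted p 0.0273 by edgeR), and the cationic amino acid transporter gene Slc7a1 fell by 0.22, in an amino acid response list of 36 whose median was -0.00018. The sterol sensor gene Insig1 rose by 0.23 among 31 cholesterol and fatty acid synthesis genes (median 0.09), and the glycolytic enzyme gene Aldoa by 0.33 among 33 glycolysis and hypoxia genes (median 0.05). Of 39 imprinted genes 3 fell (7.69%, against 3.25% of all tested genes), Ube3a (-0.25), Peg13 (-0.22) and Inpp5f (-0.19). The list median was -0.05, and Peg13 alone of the 3 was called after the length correction. After the length correction Aldoa (adjusted p 0.161 by edgeR), Insig1 (adjusted p 0.0538 by edgeR) and Slc7a1 (adjusted p 0.19 by edgeR) were not called. Aldoa lost its call without any 1 of the 6 libraries and Insig1 without any but HET replicate 3. Slc1a5 lost it without HET replicate 1 or 3 or Chd8 neo/- replicate 1 or 2, and Slc7a1 without HET replicate 1 or 3 or Chd8 neo/- replicate 1 or 3. The imprinted count was 1 without HET replicate 1 or 2 or any 1 Chd8 neo/- library.

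Genes of blood vessels were the exception among the other cell types of the tissue. Of 16 endothelial markers 4 rose and none fell, with a median of 0.24 and 15 of 16 differences above 0, and the markers summed to 322, 337 and 339.7 CPM in HET and to 365, 409 and 394 CPM in Chd8 neo/-. The summed levels did not overlap. Kdr, the main receptor of VEGF on endothelium, stood at 68.7, 68.3 and 68.3 CPM in HET and 75.9, 83.2 and 81.3 CPM in Chd8 neo/-, a difference of 0.23 (SE 0.0421, adjusted p 0.00902 by edgeR). The angiopoietin receptor relative Tie1 (0.26), the secreted endothelial factor Egfl7 (0.31) and the junction protein Esam (0.26) rose with it. HET lay below CTRL for all 4 as well. Means in CTRL and HET were 79.2 and 68.4 CPM for Kdr, 20.2 and 17.3 for Egfl7, and 16.1 and 14.7 for Esam. Tie1 stood at 32.2, 31.8 and 31.1 CPM in CTRL and 27.6, 28.6 and 29.3 CPM in HET. In Chd8 neo/neo against CTRL the median of the list was -0.04. After the length correction 3 were called, without Esam (adjusted p 0.0735 by edgeR). The list median was 0.21 to 0.27 whichever of the 6 libraries was left out. The count of calls was 1, 3 and 3 without HET replicates 1, 2 and 3 and 3, 0 and 1 without Chd8 neo/- replicates 1, 2 and 3, and 0 without HET replicate 1 and the other libraries with high Xist.

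No marker of a tissue other than neocortex and vessels was called by edgeR. An unadjusted p under 0.05 was found for 7 of 13 erythroid, 5 of 9 surface ectoderm, 3 of 20 mural and meningeal and 1 of 17 midbrain, isthmus and diencephalon markers, and DESeq2 called 4 erythroid markers higher and 1 mural or meningeal marker lower. Erythroid genes had a median of 0.52 over 13 tested, and their sums of 3353 to 4730 CPM in HET and 4680 to 7281 in Chd8 neo/- overlapped. Gata1, the erythroid master regulator, differed by 1.19 (adjusted p 0.0512). Microglia markers summed to 71.0 to 74.8 CPM in HET and 70.5 to 82.9 in Chd8 neo/-, and mural and meningeal markers to 721 to 1342 and 806 to 907. Midbrain, isthmus and diencephalon markers had a median of -0.89 that turned to 0.29 without HET replicate 2, the 1 library in which they were high, as for Irx5 at 0.678, 6.46 and 0.587 CPM in HET and 0.390, 0.696 and 1.09 CPM in Chd8 neo/-. All 9 tested surface ectoderm markers were lower in Chd8 neo/-, uncalled, with a median of -0.52 that was -1.11 without HET replicate 1. They summed to 13, 22.8 and 22.6 CPM in HET and to 11.8, 12.5 and 13.7 CPM in Chd8 neo/-, so that HET replicate 1 lay in the Chd8 neo/- range. Eye markers summed to 15.2 to 18.7 CPM in HET and 16.4 to 17.3 in Chd8 neo/-, choroid plexus markers to 153 to 191 and 164 to 199.6, and the lens gene Foxe3 was at 0 in all 6 libraries. The share that blood vessels or other tissues had in the remaining results was not tested.

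The comparison of Chd8 neo/neo with CTRL exchanges wildtype for neo alleles in other embryos, 2 of them in place of 1. Of the 410 genes higher in Chd8 neo/- than HET, 390 (95.1%) had the same sign in Chd8 neo/neo against CTRL, where 51.2% of all tested genes were above 0, and 229 (55.9%) were called in the same direction. The background of calls there was 3.71% higher and 4.45% lower. Of the 611 lower genes 598 (97.9%) kept the sign and 323 (52.9%) were called. The shared calls made up 32.9% of the 697 genes higher and 38.6% of the 837 lower in Chd8 neo/neo. When the Chd8 neo/neo and CTRL libraries were fitted alone, 91 of 408 rises and 143 of 611 falls were called, with 388 and 598 of the same sign. The background of calls in that fit was 0.92% higher and 1.43% lower over 18310 genes. Both contrasts share the trend with exon length.

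**Figure D5:**
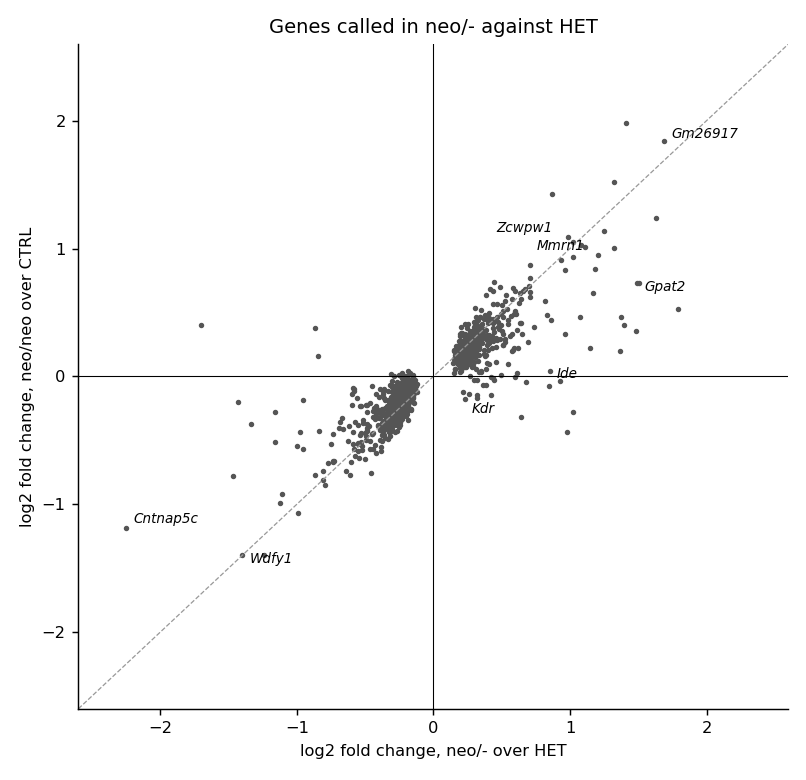
Log2 fold change of Chd8 neo/- over HET (x axis) against that of Chd8 neo/neo over CTRL (y axis) for the 1021 genes called in the first, with the dashed line for equal values. Most points lie in the quadrants of equal sign, Wdfy1 lies on the line at -1.40 on both axes, and Ide lies near 0 on the y axis.

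Among the named genes the 2 differences were often of like size. They were -1.40 and -1.40 for Wdfy1, 0.99 and 1.09 for Zcwpw1, -0.99 and -1.07 for Scn2b, -0.34 and -0.36 for Sfxn1, and -0.35 and -0.35 for Dnmt3a, Chd8 neo/- against HET first. Kdr was the 1 gene called in opposite directions, 0.23 higher in Chd8 neo/- than HET and -0.17 in Chd8 neo/neo against CTRL (adjusted p 0.0236 by edgeR), with means of 79.2 CPM in CTRL and 70.2 in Chd8 neo/neo. No gene passed an adjusted p under 0.05 in edgeR's test of the difference between the 2 contrasts, in which 808 of 18810 genes had an unadjusted p under 0.05. The smallest adjusted p was 0.135, for Kdr (a difference of 0.40) and for Acvrl1 (0.56).

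Several genes named in the study for other comparisons were not called here. The neuroligin gene Nlgn3 was at 24.2, 19.9 and 20.7 CPM in HET and 18.5, 17.7 and 20.1 CPM in Chd8 neo/-, with overlapping groups and a difference of -0.20 (adjusted p 0.131). The kinase gene Pim1 differed by 0.22 (adjusted p 0.0692), the sodium-proton exchanger gene Slc9b2 by 0.40 (adjusted p 0.159) and Rpl26 by 0.14 (adjusted p 0.216), all by edgeR. These p do not show that the genes were equal, since 3 libraries a group left standard errors of 0.0656 for Rpl26 up to 0.163 for Slc9b2.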

How the data were processed

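RNA-sequencing counts of E12.5 neocortex were used, from 3 Chd8 neo/- and 3 HET libraries and, for the shared estimate of the spread, 3 CTRL and 3 Chd8 neo/neo libraries. According to the methods, mRNA was sequenced as paired reads on an Illumina HiSeq and checked with FastQC 0.11.2, adaptors were trimmed with Trim Galore 0.4.1, reads were aligned to GRCm38 with TopHat 2.1.0 and counted with featureCounts 1.5.0, and differences were tested by the authors with DESeq2. What the authors deposited is a count table with 1 column for each run of a library, neither normalized nor filtered. All 36 sample columns belong to the series, and those at another age were not used here.

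The 2 runs of each library were summed. Genes were filtered with filterByExpr, scaled by TMM and fitted over 12 libraries with genotype as the only term in edgeR 4.0.16 (R 4.3.3, limma 3.58.1, robust quasi-likelihood test, two-sided). P-values were adjusted by Benjamini-Hochberg over 18810 genes, and an adjusted p under 0.05 was called. SE is that of the log2 difference. The script was tested on simulated data first. Same-group libraries differed beyond sampling noise (chi-square per degree of freedom 5.54 to 18.1), so that all were counted separately. P-values measure the spread between embryos of 3 litters a group, and counting intervals cover counting error only.

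Gene and marker lists were written from general knowledge, and the members and lists were chosen with earlier results of these data known. Named genes were Chd8, the 12 called genes that rose most and the 12 that fell most (no overlap, mean of at least 10 counts), the 10 smallest adjusted p, up to 4 called members of each list (with none called, up to 2 uncalled), genes named in the study for E12.5, and neighbours of Chd8 within 250 kb. Of the gene identifiers 46005 matched a symbol and 598 did not. Length and GC trends were removed per library by loess (span 0.5), with GC content known for 99.4% of tested genes. The other alternatives were DESeq2 1.42.0, RLE and upper quartile scaling, no filter, only the 6 libraries, a replicate block, the runs taken singly, sex-linked counts as a covariate or libraries with high Xist left out, and each library left out. The comparison of Chd8 neo/neo with CTRL and the test of the difference were added after the data were seen. Some named genes are not reported here. Figures used Python 3.11.15, pandas 2.3.3 and matplotlib 3.10.9.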

Additional observations from a re-analysis of the deposited data

How the results depend on the processing

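Both the count of DEGs and its split depended on the settings. Leaving out 1 library at a time gave 244 to 1439 calls in all, 99 to 520 higher and 135 to 919 lower, and leaving out those with high Xist gave 212 (89 higher, 123 lower). DESeq2 called 1689 genes (1117 lower), the 6 libraries alone 1508 (640 higher), the runs alone 696 (221 higher) and 676 (230 higher), and the fit without length and GC trends 547 (271 lower). The difference of Chd8 kept its direction in all 24 settings and ran from -0.21 to -0.13 over single libraries left out. It missed the threshold at -0.15 with upper quartile scaling, at -0.16 with the 6 libraries alone, -0.16 with the sex-linked covariate, -0.17 and -0.16 in the runs alone, -0.17 without the libraries with high Xist and -0.040 without length and GC trends.

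Numbers shared between the groups were not taken to pair the embryos, since no source says that a number marks a litter. Deviations of same-numbered libraries correlated at 0.078, -0.041 and -0.090, and those of differently numbered libraries at -0.093 to 0.134. With 3 libraries a group these values cannot show whether a litter or batch was shared. With the replicate number as a block, 688 genes were called over 12 libraries and 1281 over 6, and Chd8 was at -0.16 in both blocked fits without passing the threshold.

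Without length and GC trends the list medians were -0.024 for amino acid response genes, -0.033 for autism-associated regulators, -0.035 for CHD genes, -0.038 for cortical neuron identity genes (-0.088 in 1 run taken alone), -0.0087 for DNA methylation genes, 0.046 for DNA repair, -0.11 for intermediate progenitor genes, 0.086 for mitosis, 0.013 for oxidative phosphorylation, 0.014 for ribosomal protein genes, and -0.0038 for Polycomb genes. With single libraries left out, medians ran from 0.16 to 0.28 for germline genes, 0.022 to 0.057 for DNA repair, 0.0038 to 0.040 for p53 targets, -0.11 to -0.052 for intermediate progenitors, -0.24 to 0.15 for Cajal-Retzius genes, 0.13 to 0.19 for dorsal patterning, -0.12 to 0.039 for Wnt genes, -0.019 to 0.019 for Notch genes, -0.043 to -0.0094 for Polycomb genes, 0.058 to 0.13 for cholesterol genes and -0.019 to 0.024 for amino acid response genes. The causes of these shifts were not tested. Depth limits the genes below 1 CPM, such as Wbp2nl with at most 7 counts in a HET library.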

Other observations

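Further genes typical of endothelium were among the 410 rises, chosen here after their values were seen. Vwf, the gene of von Willebrand factor, was at 16.8, 21.9 and 18.8 CPM in HET and 31.2, 31.8 and 26.5 CPM in Chd8 neo/-, a difference of 0.64 with an adjusted p of 0.0315 by edgeR. The adhesion gene Icam2 rose by 0.68, the BMP9 receptor gene Acvrl1 by 0.42, the apelin receptor gene Aplnr by 0.32, and the GTPase genes Gimap4, Gimap6 and Gimap8 by 0.61, 0.62 and 0.97. None of these groups overlapped. In CTRL the mean levels were 28.1 CPM for Vwf, 14.4 for Acvrl1 and 43.5 for Aplnr, above all HET libraries, and in Chd8 neo/neo they were 22.6, 13.1 and 39.3.

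Neighbours of Ide on chromosome 19, also chosen after their values were seen, were examined one by one. Fgfbp3 was at 27.5, 28.7 and 30.1 CPM in HET and 37.9, 37.2 and 34.9 CPM in Chd8 neo/-, a difference of 0.35 with an adjusted p of 0.0385 by edgeR, and its mean was 27.3 CPM in CTRL and 39.2 in Chd8 neo/neo. Btaf1 was at 117, 113 and 121 CPM in HET and 158, 139 and 151 CPM in Chd8 neo/-, a difference of 0.35 with an adjusted p of 0.00377 by edgeR, and its mean was 119.7 CPM in CTRL and 123 in Chd8 neo/neo. Btaf1 thus followed the order of Ide, whereas Fgfbp3 was as high in Chd8 neo/neo. The neighbours Kif11 (-0.01) and Hhex (0.38, adjusted p 0.185 by edgeR) were not called.

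On the X chromosome 7 of 655 tested genes were called higher and 39 lower, a share of 7.02% against 5.43% over all chromosomes. Set against 2.18% higher and 3.25% lower over all tested genes, the excess lay in the falls alone. HET replicate 1 is the 1 library of the 6 with high Xist, and its part in these calls was not tested.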
